A study of Arabidopsis thaliana with 8 samples.

Results

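The genes described here are 39 regulators and machinery genes of plant cell division: the A- and B-type cyclins, the B-type cyclin-dependent kinases (CDKB), the small CDK subunits CKS1 and CKS2, the CDC20 activators of the anaphase-promoting complex, spindle checkpoint, Aurora kinase, spindle and cytokinesis genes, and a pair of MYB3R transcription factors. They were chosen by locus code from what the genes are known to do, with earlier results of these data known. All 39 were found, with 1 entry each, among the 29920 loci of the table. Their expression was compared between Arabidopsis thaliana seedlings of the root meristemless 1 (rml1) mutant and wild type seedlings of ecotype Columbia-0 aged 7 days, which had grown on upright plates and were separated into shoots and roots. The labels give no ecotype for rml1. The mutant carries a lesion in GSH1, the gene of the first enzyme of glutathione synthesis, and is known for a primary root that stops growing soon after germination.

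There were 8 tiling arrays, each of pooled organs. The 3 arrays of rml1 shoots held 61, 65 and 108 shoots, and the 3 arrays of wild type shoots held 30 shoots each. A single rml1 root array held 234 roots and a single wild type root array held 90 roots, so a difference between roots has no replicate error and no test. The series title places the comparison in work on the redox control of root growth. Values are RMA values on the log2 scale, on which a difference of 1 unit is a 2-fold change. The number of arrays limits the precision.

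Cyclins bind and activate CDKs, and the order in which cyclins appear and are destroyed drives the cell cycle forward. In plants, A-type cyclins act from S phase to mitosis and B-type cyclins act around mitosis, together with CDKB kinases that are found only in plants. MYB3R factors bind a common promoter element of genes that are transcribed in G2 and M phase. Dividing cells are a small fraction of a seedling and lie mostly in the meristems, in young leaves and in the stomatal lineage, so these transcripts are known as markers of proliferation.

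The organ labels were checked with marker genes. The median level of 7 photosynthesis genes was 12.20 to 12.29 in rml1 shoots, 12.37 to 12.52 in wild type shoots, 8.13 in the rml1 root and 7.61 in the wild type root. A set of 6 genes of the differentiated root, such as those of the Casparian strip, had median levels of 4.35 to 4.89 in rml1 shoots, 3.84 to 3.95 in wild type shoots, 6.89 in the rml1 root and 7.47 in the wild type root. Array medians lay between 3.84 and 3.98. The mutated gene GSH1 had values of 8.80, 8.61 and 8.96 in rml1 shoots, against 8.45, 8.19 and 8.11 in wild type shoots, and 8.97 in the rml1 root, against 8.14 in the wild type root. The rml1 lesion is known as a point mutation that leaves the transcript in place, so this gene does not check the genotype labels. Many of the mitotic genes had low values, and 20 or 21 of the 39 lay below the array's median in rml1 shoots, 19 in wild type shoots, 25 in the rml1 root and 15 in the wild type root.

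No mitotic gene changed by as much as 1 log2 unit in shoots, whereas in roots, with 1 array per genotype, most were lower in rml1. Of the 39 genes, 1 rose and 3 fell in rml1 shoots, and 35 did not pass (limma, adjusted p under 0.05). Over all loci a larger share was called, 23.9%, with 13.3% up and 10.6% down. The median change of the 39 genes was -0.07, beside -0.03 over all loci, and the changes ran from -0.50 to 0.46. The 95% interval of the change lay within 1 log2 unit of no change for all 39 genes, beside 86.3% of all loci (unadjusted intervals), so a 2-fold change lay outside the interval of each of them. The lowest bound was -0.74 for CYCA2;4 and the highest was 0.75 for CYCB1;1. Many of these genes had low values, at which RMA can compress differences. At an unadjusted p under 0.05, 13 of the 39 genes differed, a share near the 36.1% of all loci. The values of the rml1 and wild type shoots did not overlap for 14 of the 39 genes, beside 42.1% of all loci. In 6 of them rml1 was higher, beside 21.9% of all loci, and in 8 it was lower, beside 20.2%.

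Between the roots, 36 of the 39 genes were lower in rml1 than in the wild type, beside 51.3% of all loci. A difference of at least 1 log2 unit was present in 19 genes, all lower in rml1, beside 7.33% of all loci, and 0 were higher by that much, beside 5.25% of all loci. The median difference was -0.97, which is a 1.96-fold higher level in the wild type, beside -0.01 over all loci. The differences ran from -2.17 for KNOLLE to 0.82 for CYCB1;1. Differences of at least 2 log2 units were seen for 4 genes, KNOLLE, MAD2, CYCB1;4 and CDKB2;1, beside 1.68% of all loci. In pooled organs, fewer dividing cells and less of each transcript per dividing cell cannot be told apart. Other markers moved in the same pair of arrays: 6 of 7 photosynthesis genes were higher in the rml1 root (median difference 0.61), beside 48.5% of all loci. Of 6 genes of the differentiated root, 4 were lower by at least 1 log2 unit (7.33% of all loci), with a median difference of -1.56. The other 2 were higher in the rml1 root, by up to 0.87. Of 6 root meristem regulators, 4 were lower in rml1 and 0 by at least 1 log2 unit (median difference -0.30). Among these, PLT1, PLT2 and WOX5, which define the stem-cell niche, had values of 2.35, 3.16 and 2.91 in the rml1 root, against 2.84, 3.40 and 2.86 in the wild type root. These values were low, below the array medians of 3.95 in the rml1 root and 3.98 in the wild type root. The part of these markers in the lower mitotic values was not tested.

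**Figure D1:**
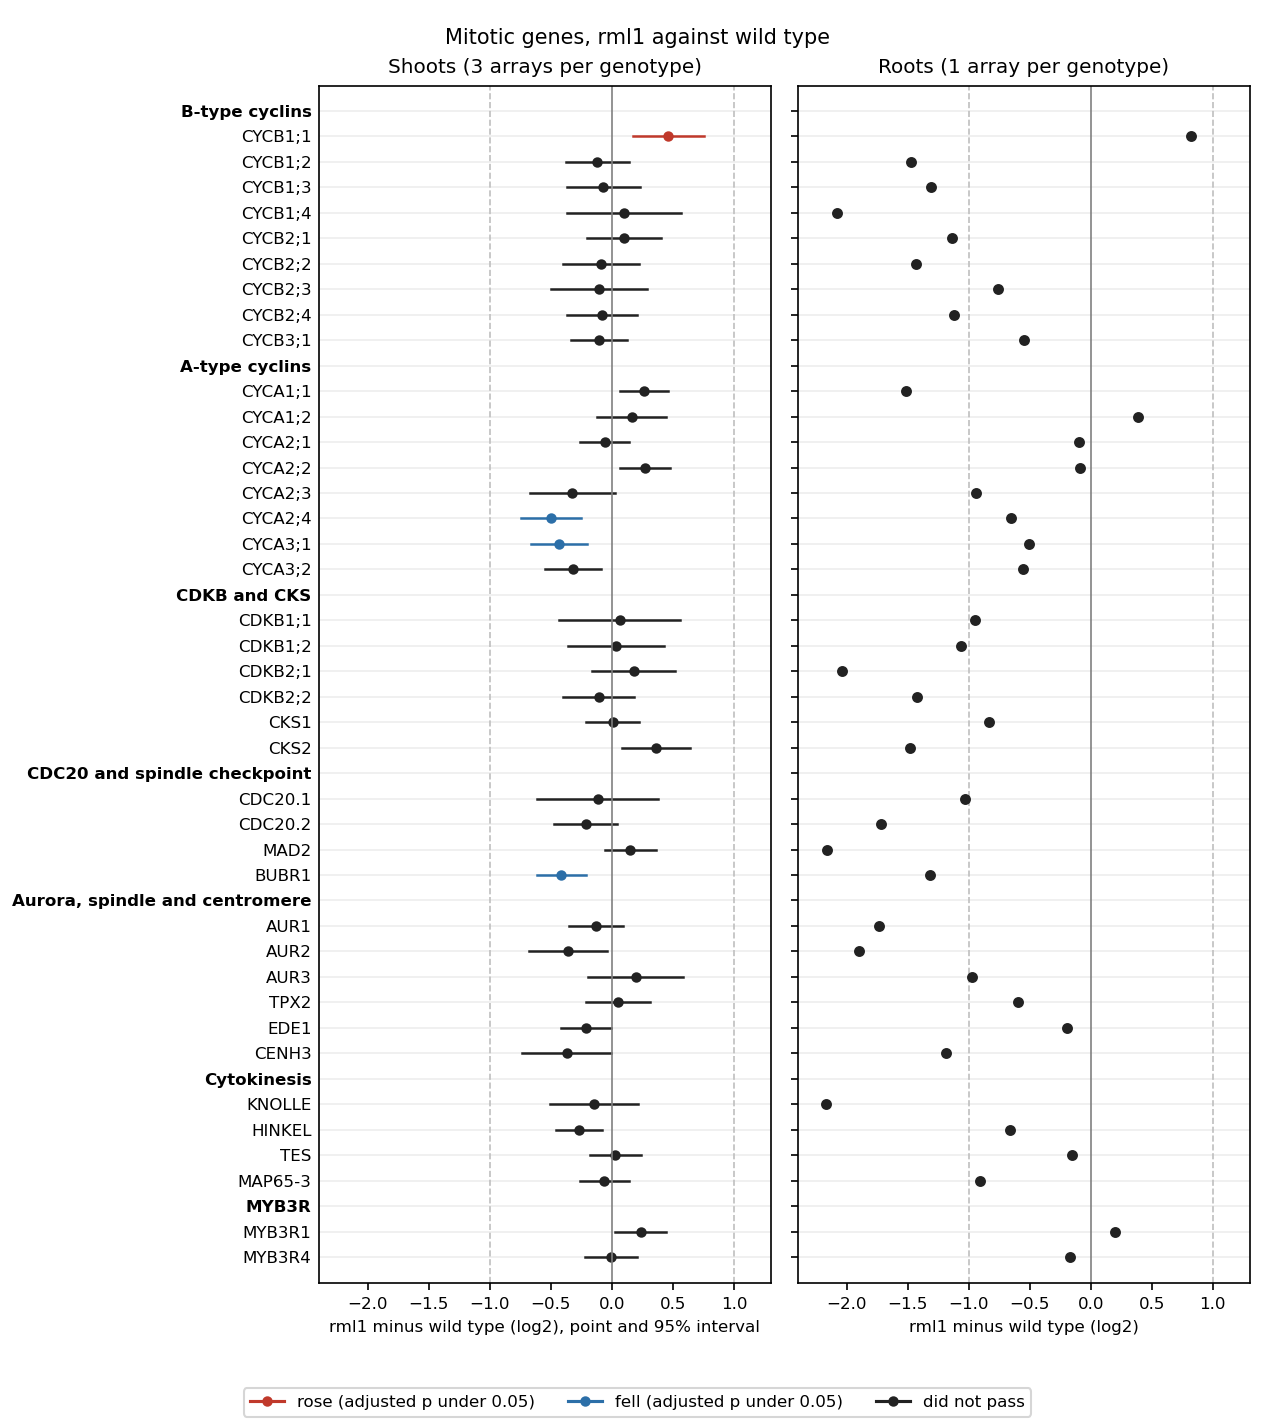
Difference between rml1 and wild type (log2) for the 39 genes, in order of their roles. The left panel shows shoots with the 95% interval from limma (3 arrays per genotype), and the right panel shows the difference of 1 root array per genotype. Dashed lines mark 1 log2 unit. All shoot intervals lie within 1 unit of 0, while 19 root points lie at or beyond -1 and CYCB1;1 is the highest root point, at 0.82.

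The B-type cyclins, which activate CDKs for entry into mitosis, held both the only rise in shoots and some of the largest differences in roots. CYCB1;1 (AT4G37490) had values of 4.76, 5.01 and 4.97 in rml1 shoots, against 4.25, 4.55 and 4.56 in wild type shoots. Each rml1 shoot array was above each wild type one, and the rise was 0.46 (SE 0.12, adjusted p = 0.0343). Besides its place in G2 and M phase, CYCB1;1 is known in Arabidopsis as the B1 cyclin that is induced by DNA breaks through the factor SOG1. It no longer passed when rml1 replicate 2 (adjusted p = 0.0949) or 3 (0.109) was dropped, or when wild type replicate 1 (0.0716), 2 (0.0568) or 3 (0.0549) was dropped.

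In roots CYCB1;1 was also higher in rml1, with 5.79 in the rml1 root, against 4.96 in the wild type root. It was the only one of the 9 B-type cyclins that was higher in the rml1 root, and the only one of the 39 genes whose rml1 root value lay above all 6 shoot arrays. The other 8 B-type cyclins were lower in the rml1 root, 6 of them by at least 1 log2 unit. CYCB1;4 (AT2G26760) had the largest of these differences, with 4.28 in the rml1 root, against 6.36 in the wild type root (log2 -2.08). CYCB1;2 (AT5G06150) had 4.59 in the rml1 root, against 6.06 in the wild type root, and CYCB1;3 (AT3G11520) had 3.63, against 4.94. The differences of the 3 other B1 cyclins thus lay between -2.08 and -1.31, while that of CYCB1;1 was 0.82.

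The same 3 cyclins overlapped between the genotypes in shoots. CYCB1;2 measured 4.86, 5.03 and 5.18 in rml1 shoots, against 5.06, 5.12 and 5.24 in wild type shoots (log2 -0.12, SE 0.11, 95% interval -0.37 to 0.14). For CYCB1;4 the values were 4.95, 5.29 and 5.14 in rml1 shoots, against 4.59, 5.13 and 5.35 in wild type shoots (log2 0.10, SE 0.20, 95% interval -0.37 to 0.57). CYCB1;3 had a change of -0.07 (SE 0.13). The 4 CYCB2 cyclins had shoot changes of -0.10 to 0.10 and root differences of -1.43 for CYCB2;2, -1.14 for CYCB2;1, -1.12 for CYCB2;4 and -0.76 for CYCB2;3. CYCB3;1, the single member of its group, had a shoot change of -0.11 (SE 0.10) and the smallest root difference among the 8 lower B-type cyclins, at -0.54.

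The A-type cyclins, which act from S phase into mitosis, contained 2 of the 3 falls in shoots and differed less in roots than the B-type cyclins by their median (-0.53, beside -1.14, a difference that was not tested). CYCA2;4 (AT1G80370) had values of 3.09, 3.40 and 3.25 in rml1 shoots, against 3.68, 3.75 and 3.79 in wild type shoots. The groups were apart, and the change was -0.50 (SE 0.10, adjusted p = 0.0138). It passed with any 1 of the 6 arrays left out. CYCA2 cyclins are known as partners of CDKB1 that hold back endoreduplication, the switch from division to repeated rounds of DNA replication.

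CYCA3;1 (AT5G43080), of a subfamily linked to S phase, had 3.33, 3.32 and 3.20 in rml1 shoots, against 3.66, 3.64 and 3.85 in wild type shoots. Its change was -0.43 (SE 0.10, adjusted p = 0.0188), but it did not pass when rml1 replicate 1 (0.0511), rml1 replicate 3 (0.0707) or wild type replicate 3 (0.0549) was dropped. Its relative CYCA3;2 (AT1G47210) had 5.09, 5.16 and 5.12 in rml1 shoots, against 5.29, 5.54 and 5.49 in wild type shoots. These values did not overlap either, but the change of -0.32 (SE 0.10) did not pass (adjusted p = 0.0539), and it passed without wild type replicate 1 (0.0283). CYCA2;3 had a change of -0.32 (SE 0.15, adjusted p = 0.163) with overlapping groups, and it too passed without wild type replicate 1 (0.0307).

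CYCA1;1 (AT1G44110), a G2 and M phase cyclin, had the largest root difference of this class, with 4.003 in the rml1 root, against 5.51 in the wild type root (log2 -1.51). Its shoot values were 5.29, 5.31 and 5.20 in rml1, against 5.05, 5.003 and 4.96 in the wild type, a change of 0.27 that did not pass (SE 0.08, adjusted p = 0.0573). CYCA1;2, also called TAM and known for its role in meiosis, was one of the 3 genes that were higher in the rml1 root, with 2.99, against 2.60 in the wild type root. The remaining root differences were -0.94 for CYCA2;3, -0.66 for CYCA2;4, -0.55 for CYCA3;2, -0.51 for CYCA3;1, -0.10 for CYCA2;1 and -0.09 for CYCA2;2. CYCA2;1 was low in every array, between 1.997 and 2.19.

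All 4 CDKB kinases and both CKS genes were lower in the rml1 root, and limma called 0 of these 6 genes in shoots, where 1 of them, CKS2, had an unadjusted p under 0.05. CDKB2;1 (AT1G76540), a kinase that peaks at G2 and M phase, had 4.64 in the rml1 root, against 6.68 in the wild type root (log2 -2.04, 4.11-fold higher in the wild type). CDKB2;2 had 4.88 in the rml1 root, against 6.31 in the wild type root. In shoots CDKB2;1 measured 5.73, 5.997 and 6.06 in rml1, against 5.50, 5.86 and 5.89 in the wild type, and the groups overlapped (log2 0.18, SE 0.14, 95% interval -0.16 to 0.52). The CDKB1 pair, which is active over a longer span of the cycle, had root differences of -0.95 for CDKB1;1 and -1.06 for CDKB1;2, with shoot changes of 0.06 (SE 0.21) and 0.03 (SE 0.17).

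CKS1 and CKS2 encode small proteins that dock CDKs to their substrates, and they are next to each other in the RefSeq gene order, with 0 protein-coding genes between them. CKS1 (AT2G27960) varied little among shoots, with 8.22, 8.27 and 8.24 in rml1, against 8.29, 8.31 and 8.10 in the wild type. CKS2 (AT2G27970) had 6.82, 7.14 and 6.86 in rml1 shoots, against 6.55, 6.47 and 6.69 in wild type shoots, a change of 0.36 without overlap that did not pass (SE 0.12, adjusted p = 0.0648). In roots CKS2 had 6.601 in rml1, against 8.08 in the wild type, and CKS1 had 8.01, against 8.84.

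The genes of the anaphase switch and its checkpoint had the lowest median root difference of all classes, -1.52, and all 4 were lower in the rml1 root by more than 1 log2 unit. CDC20 proteins activate the anaphase-promoting complex, which destroys B-type cyclins, and MAD2 and BUBR1 hold CDC20 back until all chromosomes are attached. MAD2 (AT3G25980) had 5.40 in the rml1 root, against 7.56 in the wild type root (log2 -2.16, 4.48-fold higher in the wild type). CDC20.2 (AT4G33260) had 3.42 in the rml1 root, against 5.13 in the wild type root, and its neighbour CDC20.1 (AT4G33270) had 3.36, against 4.39. The CDC20 genes stand next to each other, with 0 protein-coding genes between them, and as close relatives they may share probe signal.

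BUBR1 (AT2G33560) was the third fall in shoots, with 3.57, 3.49 and 3.54 in rml1, against 3.93, 4.02 and 3.88 in the wild type. The groups were apart and the change was -0.41 (SE 0.08, adjusted p = 0.0126), and it passed with any 1 of the 6 arrays left out. In roots BUBR1 had 3.04 in rml1, against 4.36 in the wild type. MAD2, by contrast, had 6.23, 6.43 and 6.33 in rml1 shoots, against 6.19, 6.18 and 6.16 in wild type shoots. Every rml1 value was above every wild type value, but the change of 0.15 did not pass (SE 0.09, adjusted p = 0.269). CDC20.1 and CDC20.2 had shoot changes of -0.12 (SE 0.21) and -0.21 (SE 0.11) with overlapping groups.

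Aurora kinases orient division and act on the spindle and chromosomes, and all 3 were lower in the rml1 root. AUR2 (AT2G25880) had 3.87 in the rml1 root, against 5.77 in the wild type root (log2 -1.90). AUR1 (AT4G32830) had 4.97, against 6.70, and AUR3 (AT2G45490) had 3.17, against 4.15. In shoots AUR1 measured 5.71, 5.90 and 5.72 in rml1, against 5.83, 5.95 and 5.95 in the wild type (log2 -0.13, SE 0.09). AUR2 had 5.46, 5.09 and 5.39 in rml1 shoots, against 5.57, 5.59 and 5.85 in wild type shoots, which did not overlap and did not pass (log2 -0.36, SE 0.13, adjusted p = 0.0988).

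CENH3 (AT1G01370), the histone H3 variant of centromeres, had 4.38 in the rml1 root, against 5.57 in the wild type root. Its shoot values were 4.76, 4.90 and 4.37 in rml1, against 4.94, 4.999 and 5.21 in the wild type, lower in each rml1 array than in each wild type array, with a change of -0.37 that did not pass (SE 0.15, adjusted p = 0.13). TPX2, a factor of spindle assembly, and EDE1, a microtubule-associated protein of dividing cells, had root differences of -0.60 and -0.19. Both were low in all arrays, between 2.08 and 3.06.

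Of the cytokinesis genes, KNOLLE (AT1G08560), the syntaxin that fuses vesicles into the new cell plate, had the largest root difference of all 39 genes. It had 4.66 in the rml1 root, against 6.83 in the wild type root (log2 -2.17, 4.498-fold higher in the wild type). In shoots its values were 6.09, 6.43 and 5.98 in rml1, against 6.11, 6.33 and 6.50 in the wild type, and the groups overlapped (log2 -0.15, SE 0.15, 95% interval -0.51 to 0.21). MAP65-3 (AT5G51600), which bundles microtubules in the phragmoplast, the structure that builds the plate, had 2.24 in the rml1 root, against 3.14 in the wild type root. HINKEL (AT1G18370), a kinesin that switches on a kinase cascade there, had 2.09 in the rml1 root, against 2.75 in the wild type root. Its shoot values of 2.30, 2.38 and 2.37 in rml1 lay below those of 2.58, 2.63 and 2.63 in the wild type, and the change of -0.27 missed the threshold (SE 0.08, adjusted p = 0.0505). TES, the related kinesin known from cytokinesis after male meiosis, differed by -0.15 in roots and by 0.03 (SE 0.09) in shoots.

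The MYB3R factors had the smallest median root difference of the classes, at 0.02. MYB3R1 (AT4G32730), which is known to act both as an activator and as a repressor of G2 and M phase genes, had 3.24 in the rml1 root, against 3.04 in the wild type root. In shoots it measured 3.46, 3.38 and 3.38 in rml1, against 3.11, 3.28 and 3.12 in the wild type, with no overlap and a change of 0.24 that did not pass (SE 0.09, adjusted p = 0.102). MYB3R4 (AT5G11510), an activator, lay between 1.63 and 1.90 in all 8 arrays, below the lower quartile of each array (2.14 to 2.37).

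**Figure D2:**
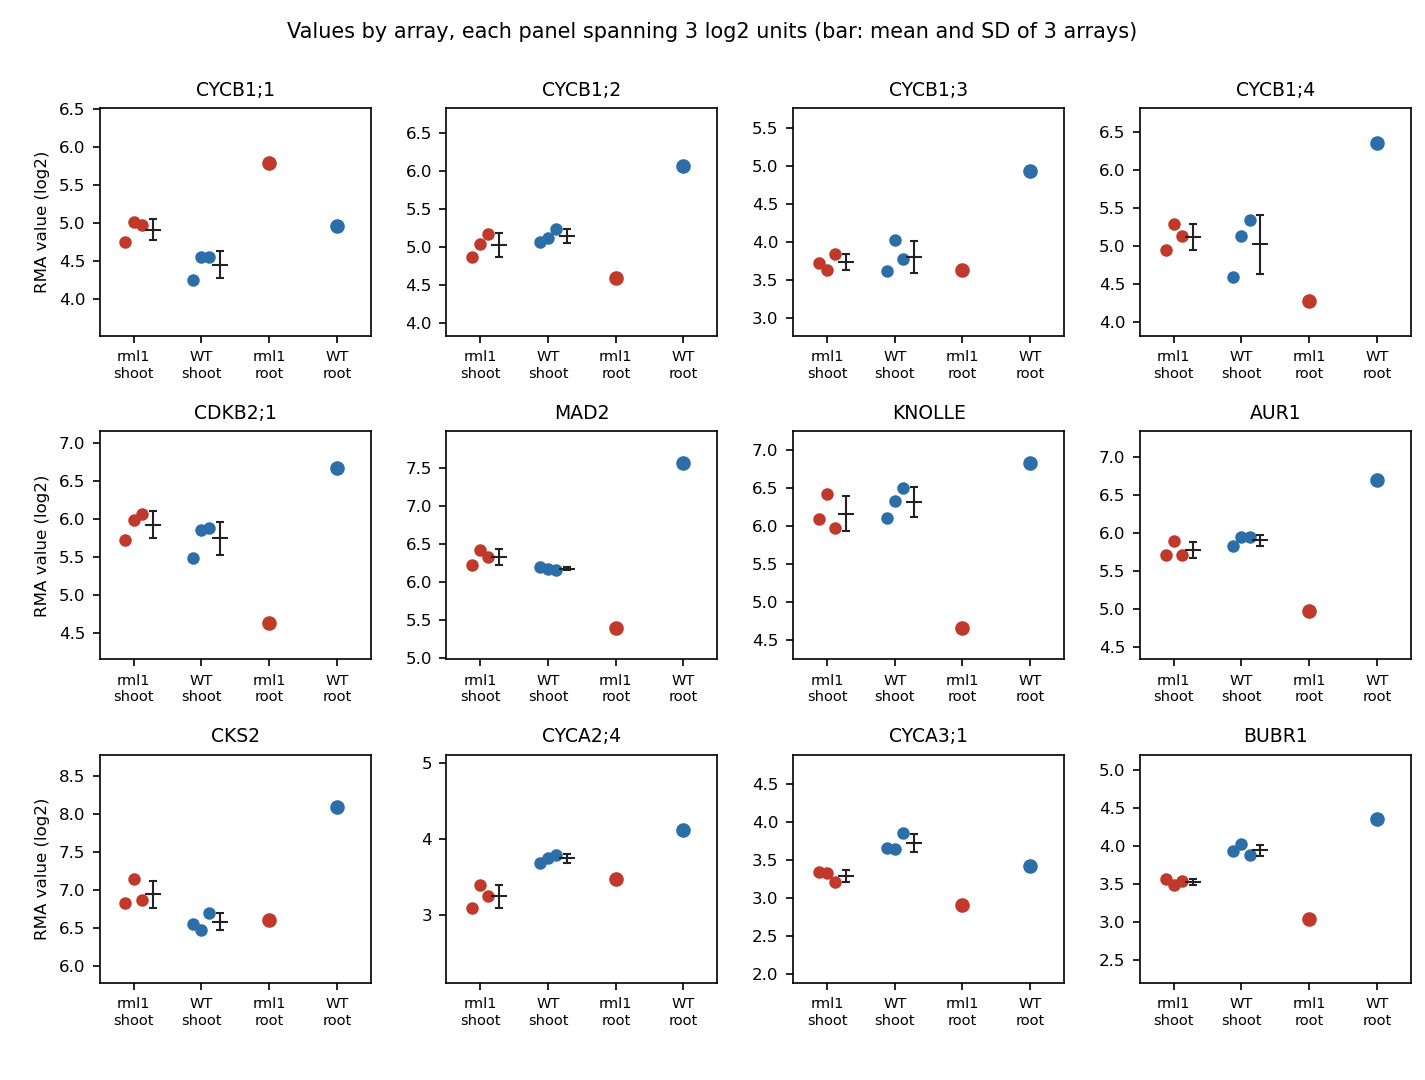
RMA values (log2) of 12 genes in each array, with rml1 in red and the wild type in blue; small points are shoot arrays with their mean and SD (n = 3), large points are single root arrays, and each panel spans 3 log2 units. For MAD2, KNOLLE, CDKB2;1 and CYCB1;4 the rml1 root is below and the wild type root above all shoot arrays, whereas for CYCB1;1 the rml1 root is the highest value. CYCA2;4, CYCA3;1 and BUBR1 show the 3 falls in shoots.

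Set against the shoots of the same genotype, the mitotic genes stood lower in the rml1 root and higher in the wild type root. The rml1 root lay below all 3 rml1 shoot arrays for 30 of the 39 genes, beside 34.8% of all loci, and below all 6 shoot arrays for 26, beside 28.9% of all loci. The wild type root lay above all 3 wild type shoot arrays for 29 genes, beside 41.2% of all loci. The median of root minus shoots was -0.29 for rml1, beside 0.03 over all loci, and 0.43 for the wild type, beside 0.02 over all loci. In rml1, 5 genes were lower in the root by at least 1 log2 unit, a share near the 9.5% of all loci. They were KNOLLE (-1.50), AUR2 (-1.44), CDKB2;1 (-1.29), CYCA1;1 (-1.26) and CYCA2;3 (-1.003). None was higher by that much (0 of 39, beside 10.6% of all loci). In the wild type, 8 genes were higher in the root by at least 1 log2 unit, beside 13.8% of all loci, led by CKS2 (1.51), MAD2 (1.39), CYCB1;4 (1.34) and CDC20.2 (1.29), and 0 were lower by that much, beside 9.98% of all loci. These differences have 1 root array each, and they share the root arrays with the comparison between genotypes.

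The genes did not follow one pattern in this respect. For KNOLLE, root minus shoots was -1.50 in rml1 and 0.52 in the wild type, and for AUR2 it was -1.44 in rml1 and 0.10 in the wild type, so the rml1 root was the one far from its shoots. For CKS2 it was -0.34 in rml1 and 1.51 in the wild type, and for CDC20.2 it was -0.21 in rml1 and 1.29 in the wild type, so there the wild type root was the one far from its shoots. CYCB1;1 was higher in the root than in the shoots of both genotypes, by 0.87 in rml1 and by 0.51 in the wild type. CYCA2;4, one of the falls in shoots, was higher in the root of both genotypes, by 0.22 in rml1 and by 0.38 in the wild type.

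**Figure D3:**
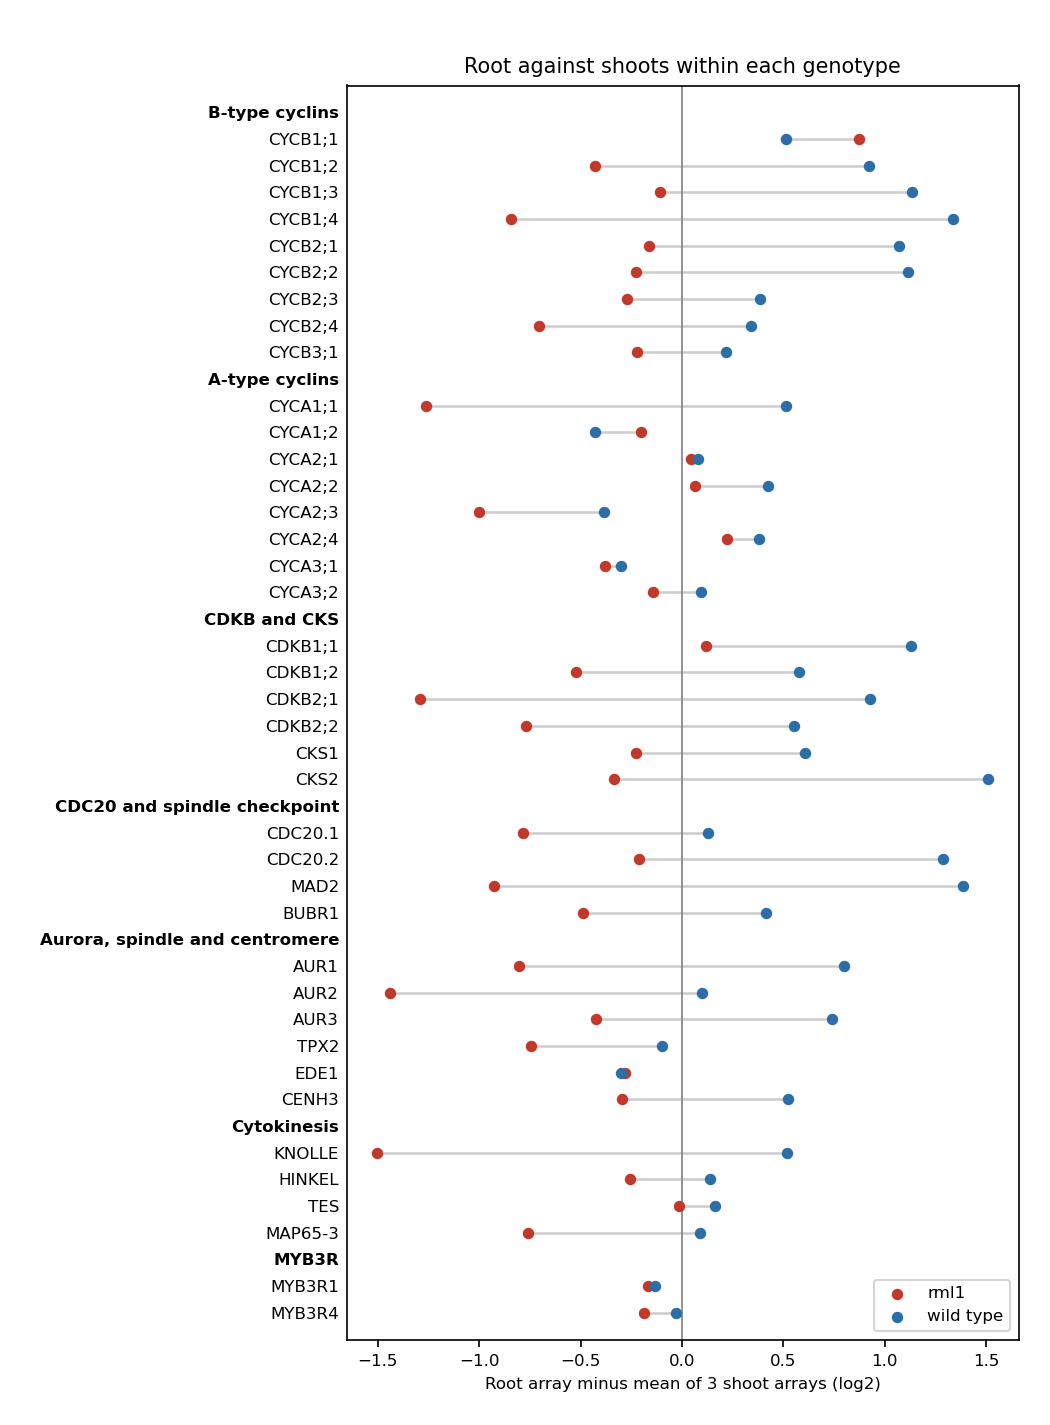
Root array minus the mean of 3 shoot arrays of the same genotype (log2) for the 39 genes, with rml1 in red and the wild type in blue and a grey line joining them. For most genes the rml1 point is left of 0 and the wild type point right of it, with a median of -0.29 for rml1 and 0.43 for the wild type. CYCB1;1, CYCA1;2 and, by a small margin, EDE1 have the rml1 point to the right of the wild type point.

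Other genes of the cell cycle were compared in the same way, in lists that were also chosen with earlier results of these data known. Their counts stand against the shares of all loci given above. These were 13.3% up and 10.6% down in shoots. In roots they were 51.3% lower, 7.33% lower by at least 1 log2 unit and 5.25% higher by at least 1 log2 unit. Of 24 further spindle, phragmoplast and cytokinesis genes, 2 rose, 1 fell and 21 did not pass in shoots (median 0.04, with 0 to 1 rises and 0 to 1 falls when single arrays were dropped). In roots 23 of them were lower in rml1 (51.3% of all loci), with a median difference of -0.38, but only 2 by at least 1 log2 unit, a share near that of all loci (7.33%). ATK5, a kinesin of the spindle, had the largest, with 2.15 in the rml1 root, against 3.22 in the wild type root. The 18 subunits and regulators of the anaphase-promoting complex, which ends mitosis, had 1 fall and 0 rises in shoots, while 5 had an unadjusted p under 0.05. The fall was that of SAMBA (log2 -0.41, SE 0.09, adjusted p = 0.0145), and the median root difference was 0.14, with 2 genes lower by at least 1 log2 unit. One of the 2 was CCS52B, an activator of the complex, with 3.87 in the rml1 root, against 5.10 in the wild type root.

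Of 15 genes of S phase and DNA replication, 2 rose, 2 fell and 11 did not pass in shoots (median -0.12, with 1 to 2 rises and 0 to 3 falls when single arrays were dropped), shares near those of all loci (13.3% up and 10.6% down). In roots 10 were lower in rml1, 3 of them by at least 1 log2 unit (7.33% of all loci), and the median was -0.28. PCNA1, the sliding clamp of DNA polymerase, had 6.21 in the rml1 root, against 7.55 in the wild type root. RNR2A, a subunit of the enzyme that makes deoxyribonucleotides, went the other way, with 7.48 in the rml1 root, against 5.54 in the wild type root. The 18 core regulators of the G1 to S step had 2 rises and 1 fall in shoots (0 to 3 and 0 to 1 when single arrays were dropped) and a median root difference of -0.07, with 1 gene at least 1 log2 unit lower and 1 higher.

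Among genes that restrain CDKs and genes of the DNA damage response, more rose than fell in shoots and most were higher in the rml1 root. Of 17 restraining genes, which are the KRP and SIM/SMR inhibitors and the kinase WEE1, 8 rose (13.3% of all loci), 1 fell (10.6% of all loci) and 8 did not pass in shoots (median 0.28, with 5 to 6 rises and 0 to 1 falls when single arrays were dropped). SMR5 and SMR7 led in shoots, with rises of 2.04 (SE 0.14, adjusted p = 0.00027) and 1.77 (SE 0.18, adjusted p = 0.000808). In roots 13 of the 17 were higher in rml1 (48.5% of all loci) and 4 were lower, with a median of 0.26, and SMR7 had 7.12 in the rml1 root, against 4.86 in the wild type root. Of 11 DNA damage response genes, 4 rose (13.3% of all loci) and 7 did not pass in shoots (median 0.20, with 4 to 5 rises when single arrays were dropped). XRI1 and ANAC044 rose by 1.63 (SE 0.15, adjusted p = 0.00059) and 1.51 (SE 0.13, adjusted p = 0.00056). All 11 were higher in the rml1 root (48.5% of all loci), 4 by at least 1 log2 unit (5.25% of all loci), with a median of 0.59, and ANAC044, a target of SOG1, had 6.39 in the rml1 root, against 3.12 in the wild type root. CYCB1;1 was higher in rml1 in both organs, as were SMR5, SMR7, XRI1 and ANAC044, which were named here for their large rises in shoots. KRP2, a CDK inhibitor, was higher in rml1 shoots (log2 0.63) but was one of the 4 restraining genes that were lower in the rml1 root (-0.73). Whether any of these genes bear on the level of CYCB1;1 was not tested.

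Most markers of the dividing cell types of the shoot were not called, beside 13.3% up and 10.6% down over all loci. The share called was still not below the 23.9% of all loci, among stomatal lineage genes or among shoot meristem genes. Of 10 stomatal lineage genes, 2 rose, 1 fell and 7 did not pass in shoots (median 0.03, with 0 to 2 rises and 0 to 1 falls when single arrays were dropped). Of 10 shoot meristem genes, 1 rose, 2 fell and 7 did not pass (median -0.18, with 0 to 1 rises and 1 to 2 falls when single arrays were dropped). Of the 6 genes of the differentiated root, 2 rose and 0 fell in shoots (median 0.61, with 1 to 4 rises when single arrays were dropped). The part of these cell types in the shoot values was not tested.

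**Figure D4:**
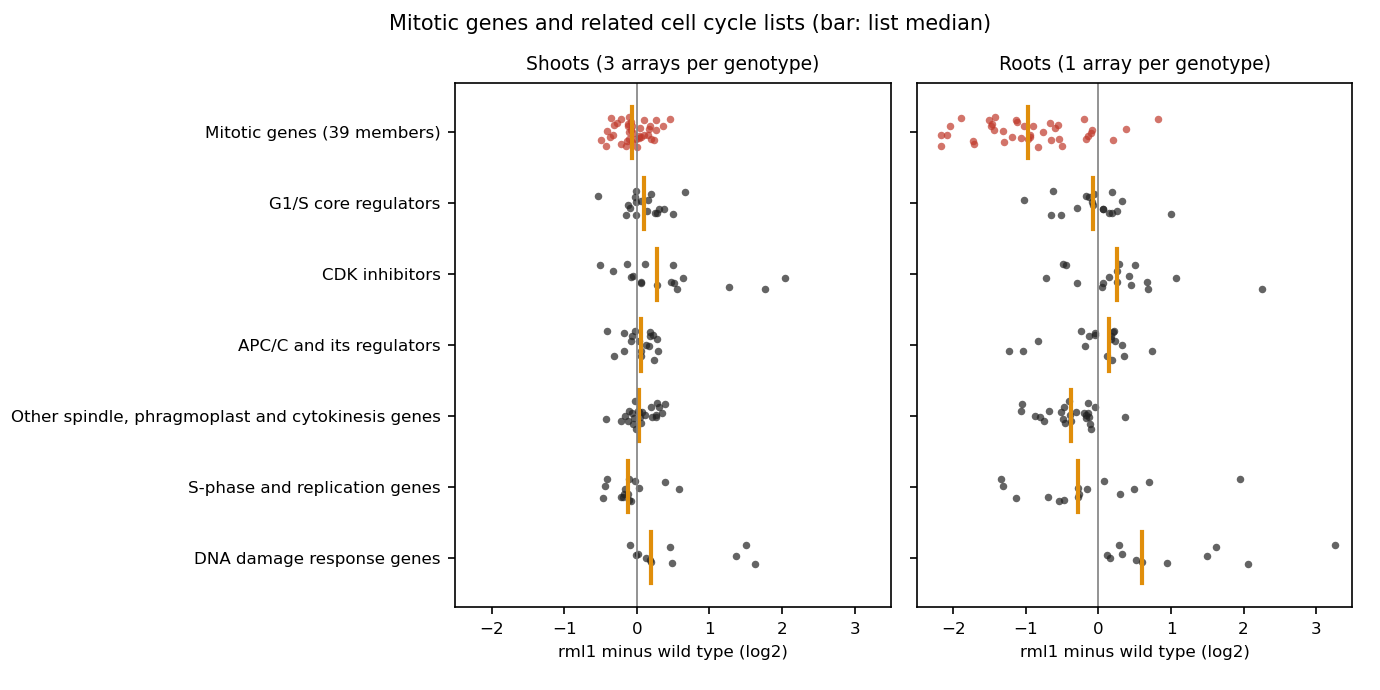
Difference between rml1 and wild type (log2) for the 39 mitotic genes (red) and for the members of 6 related lists (grey), in shoots on the left and in roots on the right. Each point is a gene, its height within a row carries no meaning, and the bar is the list's median. In shoots the mitotic genes lie between -0.50 and 0.46, and in roots their median of -0.97 is the lowest of the 7 rows, with DNA damage genes at 0.59.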

How the data were processed

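Biotin-labelled RNA was hybridised to Affymetrix Agronomics tiling arrays, 1 sample per array. The deposited values are log2 values made with RMA, per the submitters' processing notes; RMA corrects background, normalizes between arrays and summarises probes. The RMA version, gene models and build behind the probe sets are not stated in the labels, and coordinates are left out. RMA can compress differences of low genes, and signal over background was not analysed here.

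The 30237 entries were averaged to 29920 loci. The 6 shoot arrays were fitted with limma 3.58.1 (R 4.3.3; lmFit, then eBayes) on genotype alone. Tests were two-sided, p-values were adjusted over all loci by Benjamini-Hochberg, and a call needs an adjusted p under 0.05. A simulated table was used to check the fit. Roots were compared as the difference of 2 arrays, with 1 log2 unit as the size named. Labels call shoot samples biological replicates.

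Members and lists were chosen with earlier results of these data known. All 39 members could be named, with GSH1 and, of each other list, up to 2 called genes with the largest rise and fall in shoots and those with the largest root difference of at least 1 log2 unit. Of the other lists, only shoot calls that passed with any 1 array left out were named by this rule. Members were named whether or not their calls did so. PLT1, PLT2, WOX5, KRP2, MAP65-2 and MOR1 were chosen after their values were seen. Symbols come from RefSeq TAIR10.1 or are other common names of the genes. RefSeq gives KNOLLE as SYP111, HINKEL as HIK, MAP65-3 as PLE and CENH3 as HTR12. It gives CYCB1;2 as CYC1BAT, CYCA2;2 as CYC3B, MYB3R1 as PC-MYB1 and MYB3R4 as MYB3R-4. Alternatives were other scalings, filters, eBayes options, array weights, a replicate block, thresholds and each array left out. Plots used matplotlib 3.10.9 (Python 3.11.15).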

Additional observations from a re-analysis of the deposited data

Results flagged for a closer look

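For 4 of the 39 genes every rml1 shoot array was above every wild type shoot array while the rml1 root was below the wild type root, beside 6.59% of all loci. The difference between the organs was not tested. The rml1 minus wild type values were 0.27 in shoots and -1.51 in roots for CYCA1;1, 0.27 and -0.09 for CYCA2;2, 0.36 and -1.48 for CKS2, and 0.15 and -2.16 for MAD2. Related genes were searched for the same pattern only where they were called in shoots or differed by at least 1 log2 unit in roots. Marker genes were left out, and related genes outside this limit may show the pattern too. Within it the pattern held for KRP2, an inhibitor of CDKs (0.63 in shoots and -0.73 in roots). It also held for the microtubule-associated proteins MAP65-2 (0.39 and -1.05) and MOR1 (0.35 and -0.15), likewise not tested. No shoot change among the 4 mitotic genes passed the threshold.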

How the results depend on the processing

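The number of mitotic genes that rose in shoots (1) became 2 with quantile normalization, 2 with a trended, robust eBayes, 2 with array weights, 3 with only loci above the median (which keeps 19 of the 39 members, without CYCA2;4 and CYCA3;1), 0 at an adjusted p under 0.01 and 4 under 0.1. The number that fell (3) became 5 with quantile normalization, 5 with array weights, 4 with median centring and 4 with the trended, robust eBayes. It became 1 with the replicate block, 0 under 0.01 and 6 under 0.1, and 3583 of all loci were called under 0.01. With only loci above the median it stayed at 3, but the genes were CYCA3;2, BUBR1 and AUR2. With 1 array left out, 0 to 1 rose, 2 to 5 fell, 4508 to 6480 loci were called, and the median was -0.09 to -0.04. CYCB1;1 did not pass with quantile normalization (adjusted p = 0.0605) or array weights (0.0502). CYCA3;2, which did not pass in the main limma fit, passed with quantile normalization (adjusted p = 0.0221), median centring (0.0489) and array weights (0.0266). It also passed with only loci above the median (0.0235) and with the trended, robust eBayes (0.0488), but not with the replicate block (0.101). Same-numbered arrays of the genotypes did not deviate together (r of -0.10 to 0.00 across loci), but these correlations cannot exclude a pairing of the arrays. With the replicate block in limma 5189 loci were called, and BUBR1 (adjusted p = 0.0519) and CYCA3;1 (0.0643) were not. In roots, with a threshold of 0.5 log2 units 31 members were lower and 1 was higher in rml1. Among the 24 members above an array median in at least 1 root array, 23 were lower and the median difference was -1.37. The median of root minus shoots was 0.30 in the wild type with median centring of the arrays, and with 1 shoot array left out it was -0.35 to -0.24 in rml1 and 0.41 to 0.45 in the wild type. With median centring, 6 members were higher in the wild type root and 6 lower in the rml1 root by at least 1 log2 unit, each against its shoots. Settings moved the median of all loci by under 0.1, except the filter on loci above the median (0.09 in place of -0.03). Levels near the low end of the scale limit what these arrays can show.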
